A study of Arabidopsis thaliana with 18 samples.

Results

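RING1 (AT5G10380), SAG101 (AT5G14930) and GLR2.7 (AT2G29120) are 3 Arabidopsis thaliana genes linked to plant immunity, and each was measured by 1 probe set. They are 3 of the 13356 genes that the probe sets of this array name singly. The probe sets were found by their gene symbol. The genes had been chosen by earlier results of the same arrays. RING1 was selected on its difference between 23 °C and 16 °C in wild type, in which it had the fifth largest increase (rank 5 of 45 genes with a symbol that passed the same criteria). GLR2.7 was selected on its difference between 23 °C and 16 °C in elf3-7, in which it ranked 7 of 45. SAG101 met the criteria in no comparison. How it was chosen is not recorded, and its values were known at the time. Its tests are given with that limit.

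The study grew whole seedlings of the mutants elf3-7 and tfl1-1 and of wild-type Columbia (WT), each at 23 °C and at 16 °C. All plants stood on MS agar under continuous cool-white light and were collected at 10 days of age. The 6 groups were elf3-7 at 23 °C and at 16 °C, tfl1-1 at 23 °C and at 16 °C, and WT at 23 °C and at 16 °C, with 3 biological replicates each (A, B and C), so that 18 arrays were compared. The labels give 1 allele per mutant and no other transgene or treatment. ELF3 acts in the evening part of the circadian clock, and TFL1 delays flowering. Neither gene was named among the probe sets used here, so the genotype labels were not checked against the mutated genes. The arrays held RNA of roots and shoots together, in which fewer cells of a type and less RNA per cell cannot be told apart.

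Plants detect microbes at the cell surface, where receptor kinases recognise microbial patterns and open a calcium influx, and inside the cell, where NLR receptors recognise effectors. GLR2.7 encodes a glutamate receptor-like cation channel. It belongs to a small cluster of related genes with GLR2.8 and GLR2.9 that takes part in the calcium influx of pattern-triggered immunity. RING1, also called ATL55, encodes a RING-H2 ubiquitin ligase of the plasma membrane that is needed for the programmed cell death caused by the fungal toxin fumonisin B1. It is not the Polycomb protein of a similar name. SAG101 encodes a lipase-like partner of EDS1, and the EDS1-SAG101 pair works with helper NLRs of the NRG1 type in cell death and resistance downstream of TIR-type NLR receptors. Immunity through EDS1 and TIR-type receptors is known to vary with ambient temperature.

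Values are log2 RMA expression values, so that a difference of 1 is a change of 2-fold. They ran from 2.33 to 14.08 over all arrays. Levels of different probe sets are not compared with each other. The 6 replicate C arrays stood apart from the 12 replicate A and B arrays. Their 24 probe sets for spiked Bacillus transcripts averaged 5.70 ± 0.73 (SD, n = 6), against 3.21 ± 0.04 (SD, n = 12) for the other letters. Actin and GAPDH controls, read at both transcript ends, had a 3′ excess of 2.28 ± 0.34 in replicate C, against 1.28 ± 0.14 in replicates A and B. Each group held 1 replicate C array, and results are given within A and B, and in C, where they moved. A call stands for an adjusted p under 0.05 in limma, with Benjamini-Hochberg adjustment over 22746 probe sets. Errors of differences are standard errors (SE) of that fit with 3 arrays per group.

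GLR2.7, the calcium-permeable channel of the receptor-like family, was higher at 23 °C than at 16 °C in all 3 genotypes. In elf3-7, replicates A, B and C had 6.11, 5.70 and 6.08 at 23 °C, against 4.23, 4.31 and 4.38 at 16 °C. In tfl1-1 they had 5.64, 5.35 and 5.31 at 23 °C, against 4.21, 4.04 and 4.35 at 16 °C. In WT they had 5.55, 5.09 and 5.30 at 23 °C, against 4.27, 4.18 and 4.2 at 16 °C. Every 23 °C array lay above every 16 °C array of any genotype, and the 16 °C arrays of the 3 genotypes overlapped. The 16 °C values, 4.04 to 4.38, lay in the dim part of the range, where RMA values understate changes of a transcript. The increases with temperature and the differences between genotypes at 16 °C may therefore be understated.

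The difference between 23 °C and 16 °C in elf3-7, which chose GLR2.7, was 1.66 ± 0.14 on the log2 scale, or 3.15-fold, and is given without a test. In tfl1-1, GLR2.7 rose by 1.23 ± 0.14 (95% interval 0.93 to 1.53), or 2.35-fold, with an adjusted p of 0.000374. In WT it rose by 1.1 ± 0.14 (95% interval 0.80 to 1.4), or 2.14-fold, with an adjusted p of 0.00183. All 3 replicate letters of tfl1-1 and of WT showed the increase, by 1.44, 1.31 and 0.95 in tfl1-1 and by 1.28, 0.91 and 1.1 in WT for A, B and C. Of all probe sets, 9.16% were called in tfl1-1 and 3.98% were called higher at 23 °C. In WT, 6.81% were called and 2.83% called higher, and in elf3-7 4.87% were called and 2.55% called higher. Within replicates A and B alone the increase was 1.37 in tfl1-1 (adjusted p = 0.00148) and 1.1 in WT (adjusted p = 0.00864).

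RING1, the membrane ubiquitin ligase, was also higher at 23 °C in all 3 genotypes. In elf3-7, replicates A, B and C had 6.63, 5.79 and 6.67 at 23 °C, against 5.39, 5.02 and 5.18 at 16 °C. In tfl1-1 they had 7.39, 7.29 and 6.95 at 23 °C, against 5.39, 5.66 and 5.87 at 16 °C. In WT they had 6.94, 6.27 and 6.68 at 23 °C, against 5.29, 4.81 and 5.02 at 16 °C. Within each genotype the temperatures did not overlap, but replicate B of elf3-7 at 23 °C lay below replicate C of tfl1-1 at 16 °C.

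In elf3-7, RING1 rose by 1.17 ± 0.23 (95% interval 0.67 to 1.67), or 2.25-fold, with an adjusted p of 0.0144. In tfl1-1 it rose by 1.57 ± 0.23 (95% interval 1.07 to 2.07), or 2.97-fold, with an adjusted p of 0.00228. The WT difference, which chose RING1, was 1.59 ± 0.23, or 3.00-fold, and is given without a test. For replicates A, B and C the increase was 1.24, 0.77 and 1.5 in elf3-7, against 2.0, 1.63 and 1.08 in tfl1-1, so that replicate B had the smallest value in elf3-7 and replicate C in tfl1-1. Within A and B it was 1.01 in elf3-7, where the call was lost (adjusted p = 0.0906), and 1.81 in tfl1-1 (adjusted p = 0.00352). The elf3-7 call was also lost without replicate B of 16 °C (adjusted p = 0.0635), without replicate A of 23 °C (adjusted p = 0.0726) or without replicate C of 23 °C (adjusted p = 0.0771).

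SAG101, the EDS1 partner, did not pass the test for temperature in any genotype, and its 18 values spanned only 3.73 to 4.32. In elf3-7, replicates A, B and C had 4.07, 4.01 and 3.92 at 23 °C, against 3.80, 4.06 and 4.10 at 16 °C. In tfl1-1 they had 3.73, 4.00 and 3.97 at 23 °C, against 4.22, 4.25 and 4.27 at 16 °C. In WT they had 3.80, 4.32 and 4.01 at 23 °C, against 3.93, 3.88 and 4.08 at 16 °C. The temperatures overlapped in elf3-7 and in WT, whereas in tfl1-1 every 23 °C array lay below every 16 °C array. The share of all probe sets separated in this way is not given, so this is only a description.

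The SAG101 difference, 23 °C minus 16 °C, was 0.01 ± 0.13 in elf3-7 (95% interval -0.26 to 0.29, adjusted p = 0.967). In WT it was 0.08 ± 0.13 (95% interval -0.19 to 0.36, adjusted p = 0.753). In tfl1-1 it was -0.34 ± 0.13 (95% interval -0.62 to -0.07), negative in each of the 3 letters, with an adjusted p of 0.103. With array weights the tfl1-1 difference was -0.32 and was called (adjusted p = 0.039). That was its only call among 14 settings (highest adjusted p = 0.339). The intervals in elf3-7 and WT leave out a change as large as the smallest increase of RING1 or GLR2.7. SAG101 lies in the dim part of the range, where RMA values understate changes of a transcript.

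**Figure D1:**
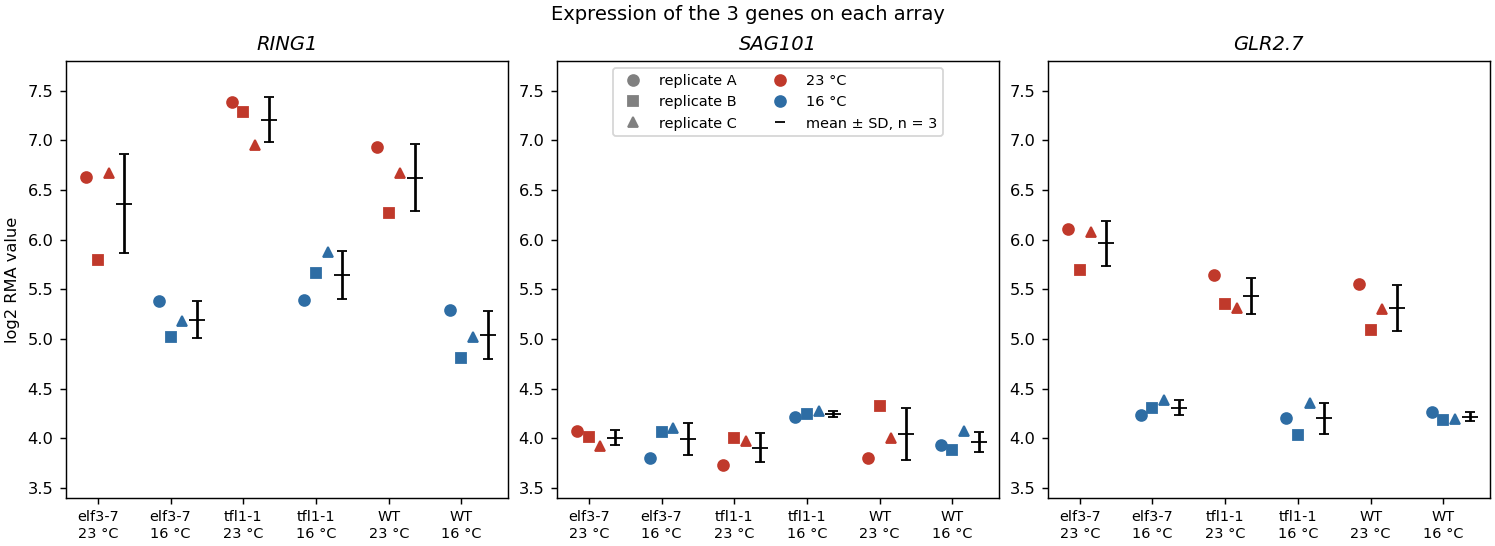
Log2 RMA values of RING1, SAG101 and GLR2.7 on each of the 18 arrays, by genotype and temperature, with red points for 23 °C, blue points for 16 °C, a marker shape per replicate letter, and bars for mean ± SD (n = 3). RING1 and GLR2.7 sit higher at 23 °C within each genotype, while all SAG101 points lie between 3.73 and 4.32.

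**Figure D2:**
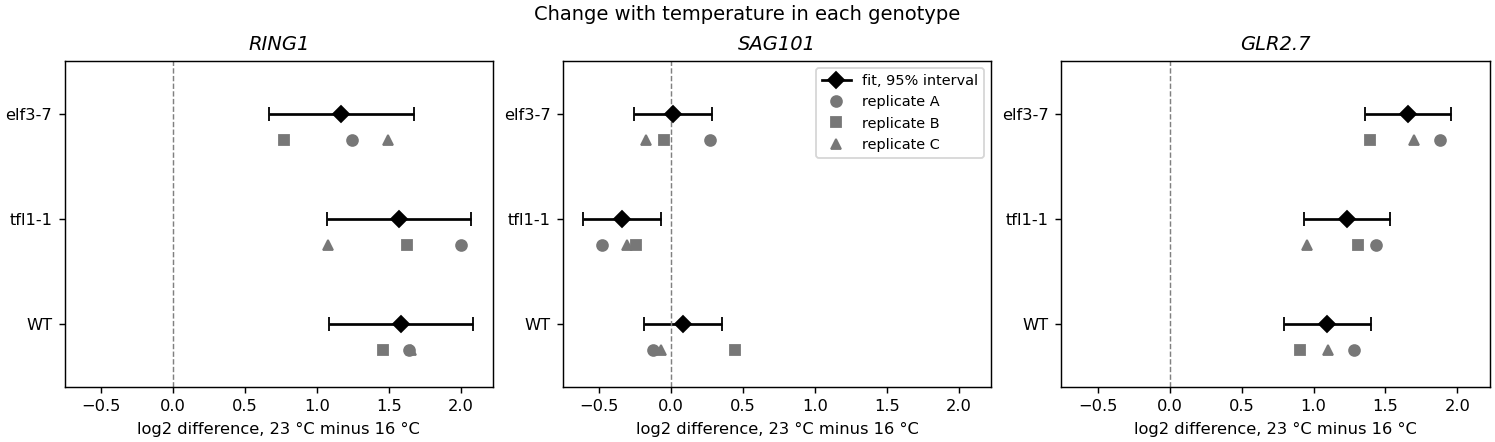
Log2 difference of 23 °C minus 16 °C in elf3-7, tfl1-1 and WT for each gene, with diamonds and bars for the fitted value and its 95% interval and grey markers for the differences of replicates A, B and C. Every RING1 and GLR2.7 marker lies above 0, and the 3 SAG101 markers of tfl1-1 lie below 0.

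Markers of other tissue shares were set beside these differences. Of 5 root markers 3 were measured: PYK10, a root beta-glucosidase, and EXPA7 and EXPA18, expansins of root hairs. Their mean per array ranged over 6.38 to 7.48 at 23 °C and 6.72 to 8.54 at 16 °C in elf3-7, over 6.11 to 6.55 and 7.10 to 7.62 in tfl1-1, and over 6.16 to 6.41 and 6.85 to 8.03 in WT. None of the 3 was called for temperature, yet the mean of their log2 values was lower at 23 °C without overlap in tfl1-1 and WT. The only green shoot marker measured of 5, the antenna gene LHCB4.2, stayed between 12.1 and 12.8 on all arrays, and none of 4 seed markers was measured. The part of tissue composition in the changes of RING1 and GLR2.7 was not tested.

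The level of RING1 followed the order tfl1-1 at 23 °C (7.21 ± 0.23), WT at 23 °C (6.63 ± 0.34), elf3-7 at 23 °C (6.36 ± 0.50), tfl1-1 at 16 °C (5.64 ± 0.24), elf3-7 at 16 °C (5.19 ± 0.18) and WT at 16 °C (5.04 ± 0.24), each as mean ± SD of 3 arrays. The arrays of neighbours overlapped between WT and elf3-7 at 23 °C, between elf3-7 at 23 °C and tfl1-1 at 16 °C, and between elf3-7 and WT at 16 °C. The tfl1-1 arrays lay above those of the next group at both temperatures, but narrowly. At 23 °C the lowest tfl1-1 array had 6.951 and the highest WT array 6.935. At 16 °C the lowest tfl1-1 array and the highest elf3-7 array both rounded to 5.39.

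Set against tfl1-1, RING1 in elf3-7 was lower by value at both temperatures without passing the test. At 23 °C the difference, elf3-7 minus tfl1-1, was -0.85 ± 0.23 (95% interval -1.35 to -0.34, adjusted p = 0.108), where 0.224% of all probe sets were called. At 16 °C it was -0.45 ± 0.23 (95% interval -0.95 to 0.05, adjusted p = 0.322), where 2.55% were called. At 23 °C the difference was -1.13 within replicates A and B (adjusted p = 0.0309) and -0.28 in replicate C, and it was called without replicate C of tfl1-1 at 23 °C (-0.98, adjusted p = 0.0233). The comparisons of RING1 with WT share the arrays that chose it and are given without a test. The difference from WT was 0.60 in tfl1-1 and 0.15 in elf3-7 at 16 °C, and 0.58 in tfl1-1 and -0.26 in elf3-7 at 23 °C.

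The level of GLR2.7 was highest in elf3-7 at 23 °C (5.96 ± 0.23), followed by tfl1-1 (5.43 ± 0.18) and WT (5.31 ± 0.23) at 23 °C, and then by elf3-7 (4.31 ± 0.08), WT (4.22 ± 0.04) and tfl1-1 (4.2 ± 0.16) at 16 °C. Neighbouring groups overlapped except at 2 gaps, between elf3-7 and tfl1-1 at 23 °C and between the warm and the cool groups. The position of elf3-7 rests on the arrays that chose the gene and is given without a test. At 23 °C elf3-7 exceeded WT by 0.56, 0.61 and 0.78 in replicates A, B and C, a mean of 0.65, and exceeded tfl1-1 by a mean of 0.53. At 16 °C the excess was 0.09 over WT and 0.11 over tfl1-1.

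GLR2.7 did not differ detectably between tfl1-1 and WT. The difference, tfl1-1 minus WT, was 0.12 ± 0.14 at 23 °C (95% interval -0.18 to 0.42, adjusted p = 0.866) and -0.02 ± 0.14 at 16 °C (95% interval -0.32 to 0.28, adjusted p = 0.991). These comparisons called 0.0352% of all probe sets at 23 °C and 0% at 16 °C, where limma gave 1717 probe sets an unadjusted p under 0.05. For elf3-7 minus WT, 0.0308% of probe sets were called at 23 °C and 0.268% at 16 °C.

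SAG101 had its highest group mean in tfl1-1 at 16 °C (4.25 ± 0.03) and its lowest in tfl1-1 at 23 °C (3.90 ± 0.15). The other groups lay between, with WT at 23 °C at 4.04 ± 0.26, elf3-7 at 4.00 ± 0.08 at 23 °C and 3.99 ± 0.16 at 16 °C, and WT at 16 °C at 3.96 ± 0.10. The arrays of every pair of neighbours in this order overlapped. At 16 °C all tfl1-1 arrays lay above all WT arrays, by 0.29 ± 0.13 (95% interval 0.01 to 0.56, adjusted p = 0.649). They also lay above all elf3-7 arrays, where elf3-7 minus tfl1-1 was -0.26 ± 0.13 (95% interval -0.53 to 0.01, adjusted p = 0.291). Neither difference passed the test. The share of all probe sets whose arrays separate in this way is not given, so the separation is only a description. With array weights elf3-7 minus tfl1-1 at 16 °C was -0.36 and was called (adjusted p = 0.0165). That was the only call of this difference among 14 settings (highest adjusted p = 0.585).

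At 23 °C SAG101 did not pass the test between genotypes. The difference was -0.14 for tfl1-1 minus WT (95% interval -0.41 to 0.13, adjusted p = 0.807), -0.04 for elf3-7 minus WT (95% interval -0.31 to 0.23, adjusted p = 0.995) and 0.10 for elf3-7 minus tfl1-1 (95% interval -0.17 to 0.37, adjusted p = 0.739). At 16 °C elf3-7 minus WT was 0.03 (95% interval -0.24 to 0.30, adjusted p = 0.997).

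Whether the response to temperature differed between a mutant and WT was tested as the difference of the differences. No probe set was called for elf3-7 (0%, with 542 at an unadjusted p under 0.05 in limma) or for tfl1-1 (0%, with 821). For SAG101 the response of tfl1-1 minus that of WT was -0.43 ± 0.18 (95% interval -0.81 to -0.05, adjusted p = 1), and that of elf3-7 minus WT was -0.07 ± 0.18 (95% interval -0.45 to 0.31, adjusted p = 1). For GLR2.7 the tfl1-1 response minus the WT response was 0.14 ± 0.20 (95% interval -0.29 to 0.56, adjusted p = 1). The remaining values share arrays with the choice of the genes and have no test. They were 0.56 for GLR2.7 in elf3-7 (95% interval 0.14 to 0.98), and for RING1 -0.42 in elf3-7 (95% interval -1.12 to 0.29) and -0.02 in tfl1-1 (95% interval -0.73 to 0.69).

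Over the 18 arrays, RING1 and GLR2.7 had a Pearson r of 0.81, which is a description, since the arrays share their temperature groups. After each genotype's mean was removed r was 0.93, and after each group's mean was removed it was 0.77. Removing group means leaves differences between the replicate letters in place. SAG101 had r of -0.27 with RING1 and -0.32 with GLR2.7. The elf3-7 arrays at 23 °C held the highest GLR2.7 values together with RING1 values, 5.79 to 6.67, that overlapped those of WT and lay below those of tfl1-1 at that temperature.

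**Figure D3:**
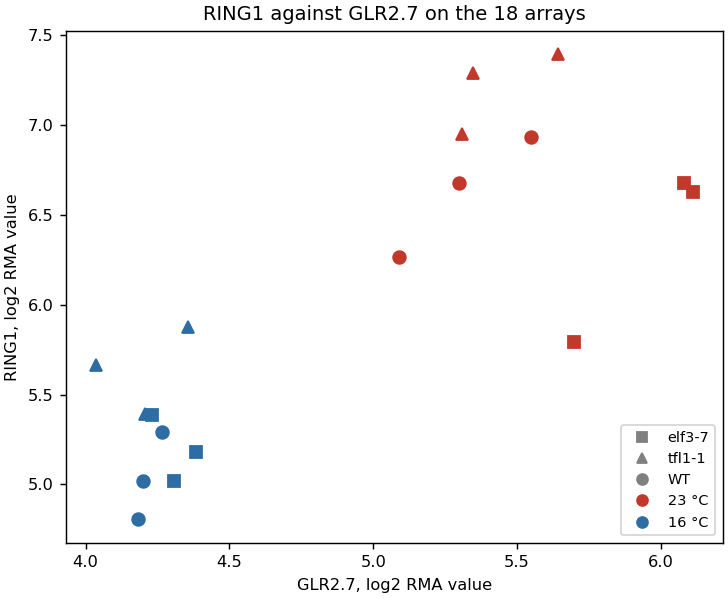
Log2 RMA value of RING1 (vertical) against that of GLR2.7 (horizontal) on the 18 arrays, with red for 23 °C, blue for 16 °C and a marker shape per genotype. The 23 °C arrays lie to the upper right, and the 3 elf3-7 arrays at 23 °C lie farthest to the right, between 5.70 and 6.11 for GLR2.7.

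Among single genes with a symbol, those most like RING1 over the 18 arrays were ATG8B (r = 0.95), ARD4 (0.94), PGRL1B (0.94), CHX20 (0.93) and PPDK (0.93). ATG8B is a ubiquitin-like protein of autophagy, PGRL1B takes part in cyclic electron flow in chloroplasts, CHX20 is a cation exchanger of guard cells and PPDK is pyruvate orthophosphate dikinase. Most like GLR2.7 were SGT1A (r = 0.91), RBL (0.90), the mitochondrial gene nad9 (0.86), ccb452 (0.85) and THE1 (0.85), a receptor kinase that senses the cell wall. Most like SAG101 were UGT71C5 (r = 0.69), AZG1 (0.67), MYR2 (0.66), PWD (0.66) and CCT2 (0.65), all weaker likenesses. With the genotype means removed the leading genes were ARD4 (0.95), ATG8B (0.95) and nad9 (0.94) for RING1, SGT1A (0.96), DI19 (0.94) and PGRL1B (0.94) for GLR2.7, and UGT71C5 (0.70), PWD (0.69) and CHL (0.69) for SAG101. Many probe sets that change with temperature follow the same groups, so these likenesses carry no test.

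The setting of the 3 genes was described with 7 lists of immunity genes, which held 115 genes, of which only 20 were measured by a probe set that names 1 gene. The 4 genes of the ATL list were taken from the probe sets themselves, so all of them were measured by construction. At 23 °C against 16 °C, 2 of the 20 were called higher in elf3-7, 1 in tfl1-1 and 3 in WT, and none was called lower. Of all probe sets 2.55% were called higher in elf3-7, 3.98% in tfl1-1 and 2.83% in WT. The count of 1 of 20 in tfl1-1 lay near that share. SGT1A was called in each genotype, and its list was drawn up with this result known. The other calls were ATL5 in elf3-7 and WT and ATL63 in WT, which were lost under several settings. The counts in elf3-7 and WT are therefore not read as an excess of immunity genes. The median difference of the 20 was 0.14 in elf3-7, 0.05 in tfl1-1 and 0.32 in WT, against 0.03, 0.04 and 0.05 over all probe sets. With the replicate letter as a block, 4 were called higher in elf3-7 (7.08% of all probe sets), 3 in tfl1-1 (8.34%) and 5 in WT (6.76%), with BIK1 and GLR3.3 added in elf3-7, and BIK1 and ATL4H in WT. Within replicates A and B the counts were 1 in elf3-7 (2.05% of all probe sets), 3 in tfl1-1 (10.2%) and 3 in WT (4.95%). BIK1 is a receptor-like kinase that acts below pattern receptors.

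Of the list of NLR receptors and their helpers, 1 of 17 was measured: SGT1A, a co-chaperone linked to NLR receptors. Replicates A, B and C had 8.53, 7.99 and 8.37 in elf3-7 at 23 °C, against 6.86, 6.85 and 6.73 at 16 °C. It had 8.5, 8.46 and 8.52 in tfl1-1 at 23 °C, against 7.11, 7.06 and 7.03 at 16 °C. It had 8.16, 8.52 and 8.21 in WT at 23 °C, against 7.00, 6.96 and 6.90 at 16 °C. All warm arrays lay above all cool arrays.

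SGT1A rose by 1.48 ± 0.13 in elf3-7 (adjusted p = 2.91e-05), by 1.42 ± 0.13 in tfl1-1 (adjusted p = 6.11e-05) and by 1.34 ± 0.13 in WT (adjusted p = 0.000264), and was called under each of the 16 settings tried in every genotype. The list was drawn up with this result known, so that its count is no independent evidence.

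In the family of glutamate receptor-like channels, 7 of the 19 other members were measured and none was called for temperature in any genotype. Under other settings GLR1.2, GLR3.3 and GLR3.5 were called. GLR2.8 and GLR2.9, which lie beside GLR2.7 in the gene order of TAIR10.1, spanned 2.99 to 3.47 and 2.89 to 3.3 over all 18 arrays, at the dim end of the range. Their difference between 23 °C and 16 °C was 0.16 and -0.10 in elf3-7, -0.00 and 0.03 in tfl1-1, and 0.11 and 0.21 in WT. GLR3.3, which carries wound signals between leaves, differed by 0.56 in elf3-7 (adjusted p = 0.11), 0.47 in tfl1-1 (adjusted p = 0.148) and 0.30 in WT (adjusted p = 0.41). GLR3.5 differed by 0.54 in elf3-7 (adjusted p = 0.0807), -0.48 in tfl1-1 (adjusted p = 0.0954) and 0.38 in WT (adjusted p = 0.202). GLR3.3 was called higher at 23 °C under 3 of 16 settings in elf3-7 (lowest adjusted p = 0.00555) and under 2 of 16 in tfl1-1 (lowest adjusted p = 0.036), which included the replicate block in both. GLR3.5 was called higher under 3 of 15 settings in elf3-7 (lowest adjusted p = 0.00818). In tfl1-1 it was called lower under 2 of 15 settings, with array weights (adjusted p = 0.0128) and without replicate C of 23 °C (adjusted p = 0.0183). GLR1.2, GLR1.4 and GLR3.6 differed by at most 0.33 in size, and GLR1.2 was called in WT within replicates A and B. For the family the median was 0.16 in elf3-7, 0.06 in tfl1-1 and 0.21 in WT.

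Of the RING-H2 ligases of the ATL family, to which RING1 belongs, 4 others were found by a symbol of ATL and a number. Members under other names were not sought, so these 4 do not stand for the family. ATL5 rose by 0.78 ± 0.19 in elf3-7 (adjusted p = 0.0308) and by 0.66 ± 0.19 in WT (adjusted p = 0.0479), and differed by -0.07 in tfl1-1 (adjusted p = 0.863). ATL63 rose by 0.49 ± 0.12 in WT (adjusted p = 0.028) and differed by -0.01 in elf3-7 and 0.05 in tfl1-1. The WT calls of ATL5 and ATL63 were each made under 7 of 15 settings and were lost whichever array was left out and within replicates A and B (adjusted p = 0.199 and 0.0756). The elf3-7 call of ATL5 was made under 8 of 15 settings and was also lost within A and B (adjusted p = 0.129).

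ATL8 varied widely within groups. Replicates A, B and C had 4.83, 4.69 and 4.19 in elf3-7 at 23 °C, against 4.69, 4.44 and 4.25 at 16 °C. It had 8.43, 7.26 and 4.59 in tfl1-1 at 23 °C, against 4.59, 5.18 and 4.49 at 16 °C. It had 6.84, 5.0 and 4.45 in WT at 23 °C, against 5.20, 4.53 and 4.45 at 16 °C. In tfl1-1 replicates A and B were high at 23 °C and replicate C was not, a mean difference of 2.01 ± 0.73 that was not called (adjusted p = 0.1). Without replicate C of tfl1-1 at 23 °C the difference was 3.09 and was called (adjusted p = 0.00155), and it was called under 5 of 15 settings in all, among them replicates A and B alone (2.96, adjusted p = 0.0056). ATL4H differed by 0.42 in WT (adjusted p = 0.0658).

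The EDS1 node, the partners of SAG101, had 1 of 26 genes measured, EDS1B, the close copy of EDS1. It differed by -0.16 in elf3-7 (adjusted p = 0.513), -0.07 in tfl1-1 (adjusted p = 0.78) and -0.22 in WT (adjusted p = 0.34), with values between 2.9 and 3.62 on all arrays. Of other ubiquitin ligases of immunity, 3 of 15 were measured (PUB22, PUB23 and PUB24, which dampen pattern responses) and none was called. EFR, the receptor for bacterial elongation factor, and BIK1 were the 2 of 22 measured in the list of pattern-triggered immunity, and neither was called. EFR differed by 0.25 in elf3-7, 0.32 in tfl1-1 and 0.40 in WT (adjusted p = 0.0896 in WT). Under other settings EFR was called higher in WT, with array weights and without replicate C of WT at 23 °C. BIK1 was called higher with the replicate block in elf3-7 and WT, and with array weights in elf3-7. Of 12 cell death and sphingolipid genes, LCB2A, a subunit of serine palmitoyltransferase, and GAMMA-VPE, a vacuolar protease of cell death, were measured and not called. Within replicates A and B LCB2A was called higher in tfl1-1 and WT. It was also called higher in elf3-7 with replicate C as a batch, and in tfl1-1 with array weights and without replicate C of 23 °C.

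**Figure D4:**
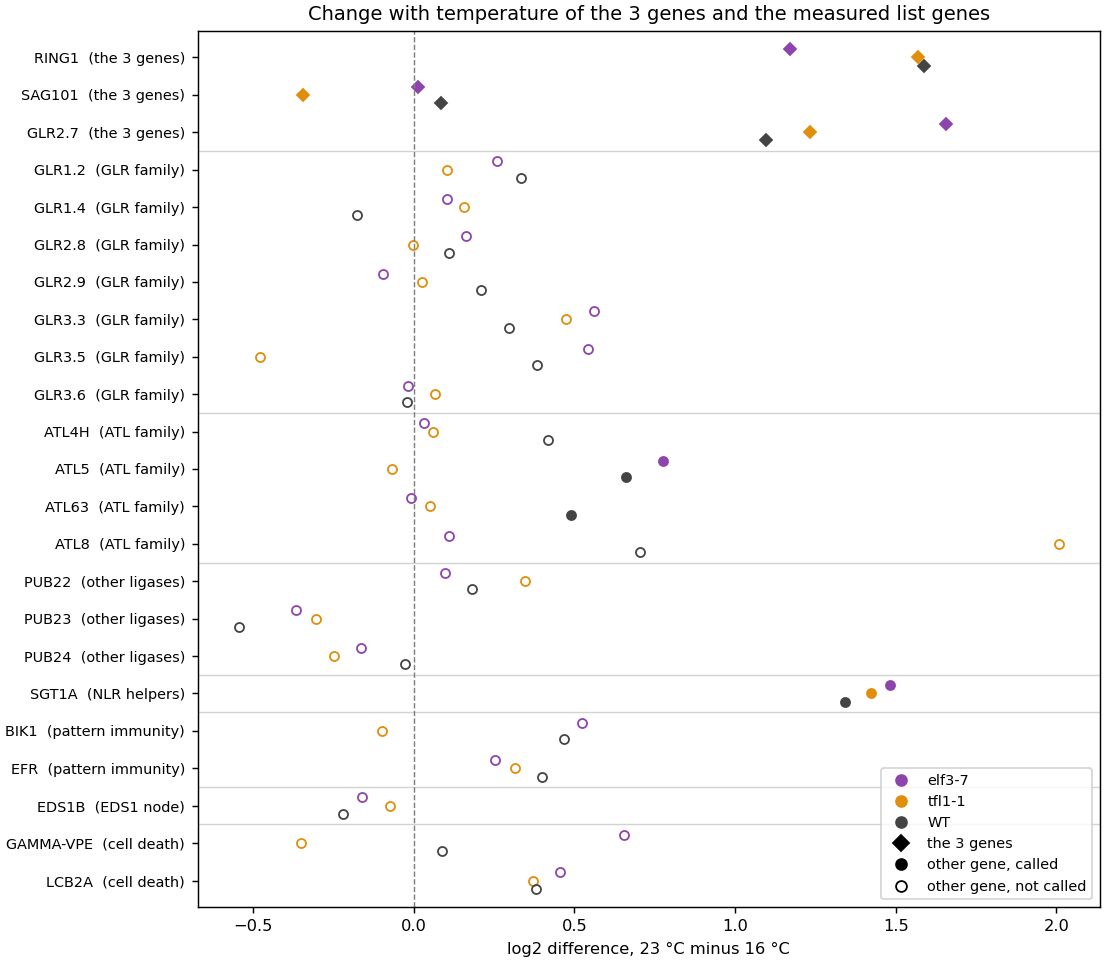
Log2 difference of 23 °C minus 16 °C for RING1, SAG101, GLR2.7 (diamonds) and the 20 measured list genes (circles), in purple for elf3-7, orange for tfl1-1 and grey for WT, with filled circles for called genes. SGT1A lies between 1.34 and 1.48 in all 3 genotypes, and the other called circles are ATL5 in elf3-7 and WT and ATL63 in WT.

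Between genotypes the list genes gave 1 call, in elf3-7 minus tfl1-1 at 16 °C, where 2.55% of all probe sets were called and 1.4% called lower. ATL5 was lower in elf3-7 than in tfl1-1 at 16 °C by -0.77 (adjusted p = 0.0424), with 4.88, 4.55 and 4.67 in elf3-7, against 5.31, 5.68 and 5.43 in tfl1-1. This call was made under 6 of 15 settings and was lost within replicates A and B (adjusted p = 0.168). With the replicate block 3 of the 20 were lower there (4.8% of all probe sets), PUB24 and GAMMA-VPE being added. At 23 °C, elf3-7 minus tfl1-1 gave no list gene call, where 0.224% of all probe sets were called. Within replicates A and B GLR3.5 was called higher (0.75, adjusted p = 0.0151) and LCB2A and ATL8 lower in elf3-7. With array weights, elf3-7 minus tfl1-1 had 1 of the 20 higher and 5 lower at 16 °C, and 1 higher and 2 lower at 23 °C. For tfl1-1 minus WT at 23 °C, array weights gave 1 higher and 2 lower. The share of all probe sets called under these settings is not given. The calls are therefore not read as a result about the list genes.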

How the data were processed

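Biotin-labelled RNA of 18 seedling samples was read on Affymetrix arrays. The authors deposited log2 values for each probe set, made with RMA per the submitters' processing notes. For RMA the version, and for the annotation the genome build, is not given in the sources used here. No further normalization was applied. Arrays carry no read depth, and their number limits the precision.

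The 64 control probe sets were left out. Names came from the platform annotation and the RefSeq gene table of TAIR10.1. Of the probe sets, 13513 name 1 gene, 503 several, and 8730 are unnamed here. The brightest probe set stood for a list gene.

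The means of 6 groups were fitted over all 18 arrays with limma 3.58.1 (lmFit, eBayes) in R 4.3.3, with 11 two-sided comparisons, each adjusted by Benjamini-Hochberg over 22746 probe sets. The fit was also run on simulated data with independent noise on each array. Those data lacked deviations shared within a replicate letter, so that run does not bear on them. Plots used matplotlib 3.10.9 in Python 3.11.15.

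The genes and lists were chosen with earlier results of these data known. The text names RING1, SAG101 and GLR2.7 in every comparison, up to 4 called members of each list (or up to 2 as values; all measured members of the receptor-like family and the EDS1 node), and the genes most like each in pattern; ATL8, ATL4H and PUB24 were named after their values were seen.

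The labels do not say what a replicate letter shares. Arrays of 1 letter had deviations from the group means that correlated above 0.1 for every letter in the temperature comparisons of elf3-7 (0.45, 0.34 and 0.62 for A, B and C) and WT (0.44, 0.30 and 0.55). The same held in elf3-7 minus WT and tfl1-1 minus WT at 23 °C and in elf3-7 minus tfl1-1 at 16 °C, and not in the other 4 pairwise comparisons. The main differences, errors and adjusted p nevertheless come from the fit without a block, so they do not use this pairing. The replicate letter entered the fit only in alternative settings.

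Alternatives were the replicate block, replicate C as a batch, replicates A and B alone, equal medians, quantile normalization, a filter on dim probe sets, array weights, limma-trend, only the groups compared, and leaving out each array.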

Additional observations from a re-analysis of the deposited data

How the results depend on the processing

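The calls of GLR2.7 for temperature in tfl1-1 and WT and of RING1 in tfl1-1 held under every alternative that gave a test, with adjusted p between 7.85e-06 and 0.0192, 0.00045 and 0.0128, and 2.5e-05 and 0.0192. Of 542 values recomputed in all, 507 kept their direction and side of the threshold or stayed near the value reported. The cause of each change below was not tested. The filter on dim probe sets left out SAG101 and GLR2.7, and the promoter motif alternative was not run. With 3 arrays a group, and SAG101 dim, small changes of SAG101 were not detectable.

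For RING1 in elf3-7, 23 °C minus 16 °C was 1.01 within replicates A and B (adjusted p = 0.0906), 1.17 with only the groups compared (adjusted p = 0.0624) and 1.5 in replicate C, and 1.02 to 1.46 when 1 array was left out. In tfl1-1 replicate C gave 1.08. RING1 in elf3-7 minus tfl1-1 at 23 °C was called with the replicate block (-0.85, adjusted p = 0.0467), within A and B (-1.13, adjusted p = 0.0309) and with array weights (-0.91, adjusted p = 0.0115). It ranged over -1.0 to -0.56 with 1 array left out and was -0.28 in replicate C. Replicate C gave 0.28 for tfl1-1 minus WT at 23 °C and -0.58 for the tfl1-1 response minus the WT response.

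SAG101 for temperature in tfl1-1 was -0.32 with array weights (adjusted p = 0.039), and elf3-7 minus tfl1-1 at 16 °C -0.36 (adjusted p = 0.0165). Each was the only call of its comparison among 14 settings. Signs of its small differences turned. The temperature difference was -0.178 in elf3-7 and -0.0694 in WT in replicate C, and ranged over -0.079 to 0.0701 in elf3-7 and -0.0552 to 0.205 in WT with 1 array left out. The difference of elf3-7 minus WT at 16 °C was -0.0803 with array weights and -0.028 to 0.121 with 1 array left out, at 23 °C -0.16 to 0.10, and for the response -0.19 to 0.0694. The tfl1-1 response minus that of WT was -0.24 in replicate C.

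GLR2.7 in tfl1-1 minus WT at 16 °C was 7e-04 with quantile normalization, 0.16 in replicate C and -0.0937 to 0.0653 with 1 array left out. Replicate C gave 0.95 for temperature in tfl1-1, 0.77 for elf3-7 minus tfl1-1 at 23 °C and -0.15 for the tfl1-1 response minus the WT response.

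Counts of called probe sets rose with the replicate block, and with replicate C as a batch in the same order: to 2920 and 2948 for temperature in elf3-7 (1107 without a block), 4012 and 4034 in tfl1-1 (2084), 3157 and 3196 in WT (1549), 120 and 126 for elf3-7 minus WT at 16 °C (61), 29 and 32 for tfl1-1 minus WT at 23 °C (8), 1918 and 1938 for elf3-7 minus tfl1-1 at 16 °C (579), 612 and 607 at 23 °C (51), and 2 and 1 for the tfl1-1 response against WT (0). For elf3-7 minus WT at 23 °C the batch gave 11 (7). For tfl1-1 minus WT at 16 °C equal medians and quantile normalization gave 1 each (0). Of the 20 list genes, 3 were called higher in tfl1-1 at 23 °C with the block (1 without it), a comparison in which not every letter correlated above 0.1. Among the comparisons given with a test, the block added the call of RING1 in elf3-7 minus tfl1-1 at 23 °C. It changed no other call of RING1, SAG101 or GLR2.7 there. Of those given without a test, GLR2.7 in elf3-7 minus tfl1-1 at 23 °C passed the threshold under 2 of 14 settings. RING1 in tfl1-1 minus WT at 23 °C passed it under 1 of 15. Both share arrays with the choice of the gene, so these passes count as no test.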
